A study of Mus musculus with 23 samples.

Results

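Back skin of adult female CD-1 mice that had received AG825 was compared with skin that had received only its solvent, DMSO, at 6 h after ultraviolet (UV) irradiation. The comparison covered 8 of the 23 arrays of the series, 4 for AG825 (replicates A, B, D and E) and 4 for DMSO (replicates C, E, F and G), chosen by treatment and time as labelled. Each mouse was shaved and treated topically with 4 mg of AG825 in DMSO, or with DMSO alone, 2 h before a UV dose of 10 kJ/m2 that was about 70% UVB and 30% UVA. RNA of whole skin was hybridised to Affymetrix MOE430A arrays. Sham-irradiated skin taken at the same hour (4 AG825 and 4 DMSO arrays) and skin taken 24 h after UV (3 AG825 and 4 DMSO arrays) served for the tests of difference. The labels do not say whether the arrays of a group came from separate mice, so the p-values measure only the spread between these arrays, which may be technical. CD-1 is an outbred, albino stock.

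AG825 is a tyrphostin that inhibits the tyrosine kinase of Erbb2, a receptor of the EGF receptor family. Erbb2 has no known ligand of its own and signals in dimers with Egfr, Erbb3 or Erbb4, which pass the signal to the MAPK and PI3K cascades. UV activates these receptors in keratinocytes, and the irradiated skin stops dividing for some hours, releases cytokines and chemokines, and draws in leukocytes. Follicles of the back skin also hold the melanocytes of haired mouse skin, and the follicle's cells and their transcripts change with the hair cycle. In whole skin, fewer cells of a type and less RNA per cell cannot be told apart.

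The arrays showed the transcripts of skin: the keratins Krt1, Krt10 and Krt6a were called present on all 8 arrays. The share of probe sets called present averaged 66.5 ± 2.43% on the AG825 arrays and 64.9 ± 3.0% on the DMSO arrays (SD, n = 4 each). Correlations over all probe sets ranged between 0.957 and 0.980 within AG825, between 0.959 and 0.985 within DMSO, and between 0.934 and 0.990 across the groups. AG825 replicate A and DMSO replicates E and F had the lowest shares of present calls.

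No probe set separated AG825 skin from DMSO skin 6 h after UV once p-values were adjusted. Of 19645 probe sets tested with limma, 0 passed an adjusted p of 0.05 (0.0%), and the lowest adjusted p was 0.235, shared by 12 probe sets. At an unadjusted p under 0.05 there were 1415 probe sets (7.2%), of which 858 were higher in AG825 skin (4.37%) and 557 lower (2.84%). The 95% interval, before adjustment, reached a median of 0.28 log2 units to either side with 4 arrays a group. For a typical probe set smaller differences could not be told from 0, and larger ones could still fail the adjusted test. With 1 probe set kept for each of 12106 genes, the median difference was -0.0022 log2 units and the quartiles lay at -0.10 and 0.11. At least 2-fold higher in AG825 were 75 genes (0.62%), and at least 2-fold lower were 19 genes (0.157%). Every gene described next is therefore given by its values and interval, and none is a call.

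Gene lists were read against shares over all genes. At an unadjusted p under 0.05, 5.28% of all genes were higher in AG825 skin and 3.33% lower. Arrays of the groups did not overlap for 1.49% of genes with AG825 higher and for 0.991% with AG825 lower. A difference above 0 was found for 49.5% of genes. A list's score on an array is the mean, over its measured members, of the log2 level minus that gene's mean over all arrays. The shares above belong to the fit of all arrays, where 1415 probe sets reached an unadjusted p under 0.05. Without AG825 replicate A, B, D or E that total was 957, 1117, 2308 and 1390. Without DMSO replicate C, E, F or G it was 2151, 990, 1446 and 1282. It was 413 without the 3 arrays of lowest present calls and 877 with the hair list's score as a covariate. These totals cover all probe sets in both directions, while counts of list members cover 1 probe set a gene in 1 direction. The totals therefore show only how each fit moved as a whole. They do not give a like share for the list counts.

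**Figure D1:**
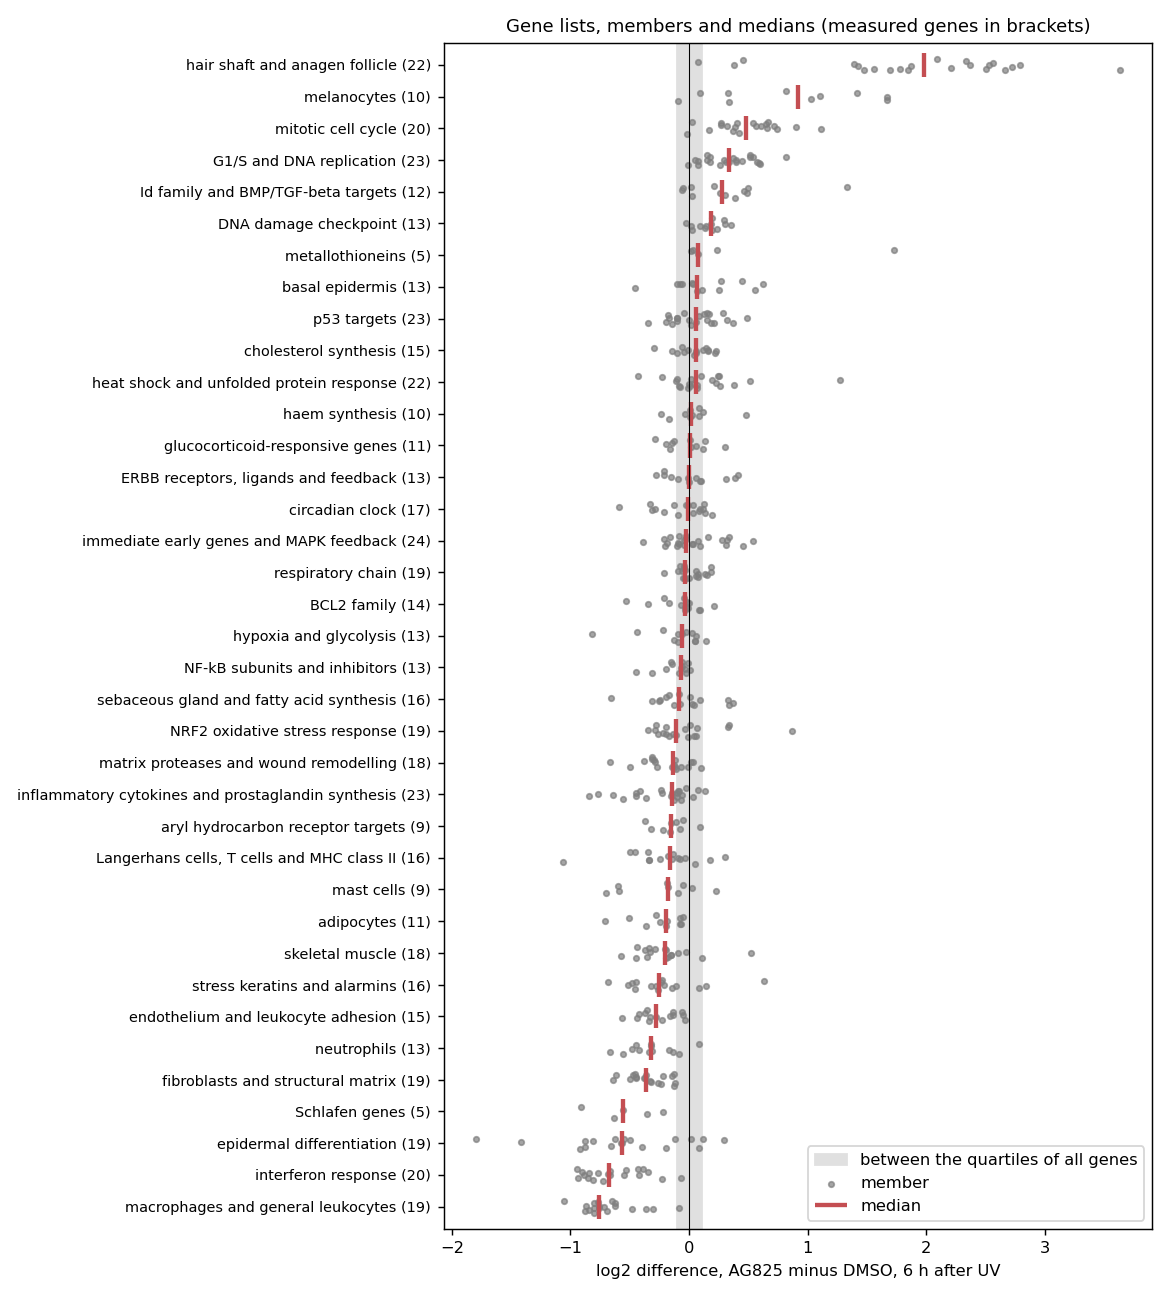
Log2 difference between AG825 and DMSO skin 6 h after UV (x axis) for the members of 37 gene lists (rows, grey points), with the list median in red and the range between the quartiles of all genes shaded. The medians of 6 lists lie right of the shaded band and those of 16 lists lie left of it, with the hair list (1.98) farthest right and the macrophage list (-0.76) farthest left.

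Transcripts of melanocytes stood higher in AG825 skin than in DMSO skin. Of 10 measured melanocyte genes, 9 had a positive difference, 6 reached an unadjusted p under 0.05, and for 5 the 4 AG825 arrays all lay above the 4 DMSO arrays. The list median was 0.92 log2 units. The list score averaged 0.15 ± 0.43 in AG825 skin and -0.68 ± 0.14 in DMSO skin (SD, n = 4 each), and the arrays did not overlap. Among the 37 lists, scores also did not overlap for interferon response, Schlafen genes, DNA damage checkpoint and mast cells. Tyrosinase (Tyr), Tyrp1 and dopachrome tautomerase (Dct) are the melanocyte list's enzymes of melanin synthesis. Because these genes are known targets of the factor Mitf, which binds a sequence called the M-box, the stretch of each promoter that holds the motif is shown, 5′ to 3′ on the gene's strand, with the motif in capitals (RefSeq, GRCm38.p6).
Tyr (chr7:87493513-87493609, minus strand): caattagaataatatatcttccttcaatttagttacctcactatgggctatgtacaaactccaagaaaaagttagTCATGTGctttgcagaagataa
Tyrp1 (chr4:80834116-80834212, plus strand): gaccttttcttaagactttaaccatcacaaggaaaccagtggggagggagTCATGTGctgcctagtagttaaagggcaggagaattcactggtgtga
Dct (chr14:118052400-118052496, minus strand): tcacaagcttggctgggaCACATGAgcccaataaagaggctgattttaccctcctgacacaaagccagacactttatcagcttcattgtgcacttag

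The letters searched were TCATGTG, on both strands, in the 250 bases before the start of each gene. They were found in 4 of the 6 melanocyte genes that had a promoter in the table (Tyr, Tyrp1, Dct and Trpm1) and in 2.7% of 9654 genes of the array. The motif shown for Dct lies on the opposite strand and is 1 of 2 matches in its 250 bases. A match describes the letters and shows no binding.

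Tyrp1, which acts downstream of tyrosinase, had log2 levels of 10.28, 9.06, 8.20 and 8.93 in AG825 skin (replicates A, B, D and E), against 7.68, 6.98, 7.33 and 7.11 in DMSO skin (replicates C, E, F and G). Every AG825 array was above every DMSO array, by 1.85 ± 0.37 log2 units on average (SE; 3.59-fold; adjusted p = 0.235, limma). Another Tyrp1 probe set differed by 1.41 ± 0.35 (adjusted p = 0.336). Dct stood at 11.76, 10.82, 9.90 and 10.62 in AG825 skin, against 9.83, 8.69, 8.79 and 9.10 in DMSO skin. These arrays did not overlap either, and the difference was 1.67 ± 0.37 (3.18-fold; adjusted p = 0.252). Pmel, which forms the fibrils of the melanosome, had 10.92, 10.39, 9.57 and 10.63 in AG825 skin, against 9.48, 8.57, 8.06 and 8.69 in DMSO skin. Its difference was 1.67 ± 0.35 (3.19-fold; adjusted p = 0.235), and DMSO replicate C came close to the lowest AG825 array, replicate D.

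Tyr itself had 9.05, 7.98, 7.54 and 8.18 in AG825 skin, against 7.22, 7.19, 6.89 and 7.03 in DMSO skin, without overlap. The difference was 1.11 ± 0.32 (adjusted p = 0.424), while its other 2 probe sets differed by 0.16 and 0.21. Trpm1, a cation channel of melanocytes, differed by 1.03 ± 0.28 with overlapping arrays (adjusted p = 0.392). Mitf itself differed by 0.09, and Sox10, another regulator of the lineage, was called absent on all 8 arrays. AG825 replicate D was the lowest AG825 array for all of Tyr, Tyrp1, Dct, Pmel and Trpm1. Without it, the test called Tyrp1 (2.15, adjusted p = 0.0391), Pmel (1.94, adjusted p = 0.0391) and Dct (1.96, adjusted p = 0.0406), and over the other alternatives these genes were not called.

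Genes of the hair shaft and growing follicle were also higher in AG825 skin, with larger differences and a larger spread. All 22 measured members had a positive difference and 15 reached an unadjusted p under 0.05, with a list median of 1.98 log2 units. The list score was -0.30, 0.66, -2.01 and 1.27 in AG825 skin, against -0.54, -2.96, -3.24 and -1.35 in DMSO skin. The groups overlapped, since AG825 replicate D scored below DMSO replicates C and G. Arrays of sham skin scored -0.44 to 1.59 with AG825 and 0.72 to 1.64 with DMSO, so that the range within each irradiated group was the wider one.

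Hoxc13, a homeobox factor needed for hair shaft formation, was the sole member of the list whose arrays did not overlap. Its levels were 9.59, 8.95, 7.75 and 9.38 in AG825 skin, against 7.73, 6.50, 6.57 and 7.38 in DMSO skin. The difference was 1.87 ± 0.38 (3.66-fold; adjusted p = 0.235) and AG825 replicate D and DMSO replicate C nearly met. Krt25, a keratin of the inner root sheath, had 12.44, 12.76, 10.53 and 13.34 in AG825 skin, against 11.64, 6.74, 6.07 and 10.07 in DMSO skin. Its difference of 3.64 ± 0.86 was the largest of the 12106 genes, but the DMSO arrays themselves spanned more than that (adjusted p = 0.295). Krt35, a keratin of the hair cortex, differed by 2.67 ± 0.63 and Msx2, a homeobox factor of the hair matrix, by 1.42 ± 0.37, both with overlap. Outside the list, Ptch1, the Hedgehog receptor, had 9.98, 9.35, 8.91 and 8.98 in AG825 skin, against 8.35, 7.02, 7.82 and 7.01 in DMSO skin (1.76 ± 0.38, adjusted p = 0.235; its other probe set 0.03). Bambi, a pseudoreceptor of the BMP and TGF-beta pathway, differed by 1.33 ± 0.34 with overlap (adjusted p = 0.354). Of the 12 Id and BMP/TGF-beta genes in the list of Bambi, 10 had a positive difference and 4 reached an unadjusted p under 0.05, with a median of 0.28. Id1, an inhibitor of helix-loop-helix factors, had 9.15, 10.20, 9.47 and 10.13 in AG825 skin, against 10.27, 9.39, 8.46 and 9.78 in DMSO skin, with the arrays intermixed (interval -0.43 to 0.96).

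The number of hair genes at an unadjusted p under 0.05 depended on single arrays: it was 20 without AG825 replicate D, 9 without DMSO replicate F, 9 without AG825 replicate E, and 3 without the 3 arrays of lowest present calls (median 0.95). With the hair score added to the fit as a covariate, the melanocyte median was 0.58 and 4 of its genes reached that p, against 0.92 and 6 without it. The hair score itself differs between the groups, so such a fit does not separate it from the drug. How much of the melanocyte difference the follicle content accounts for was not tested.

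**Figure D2:**
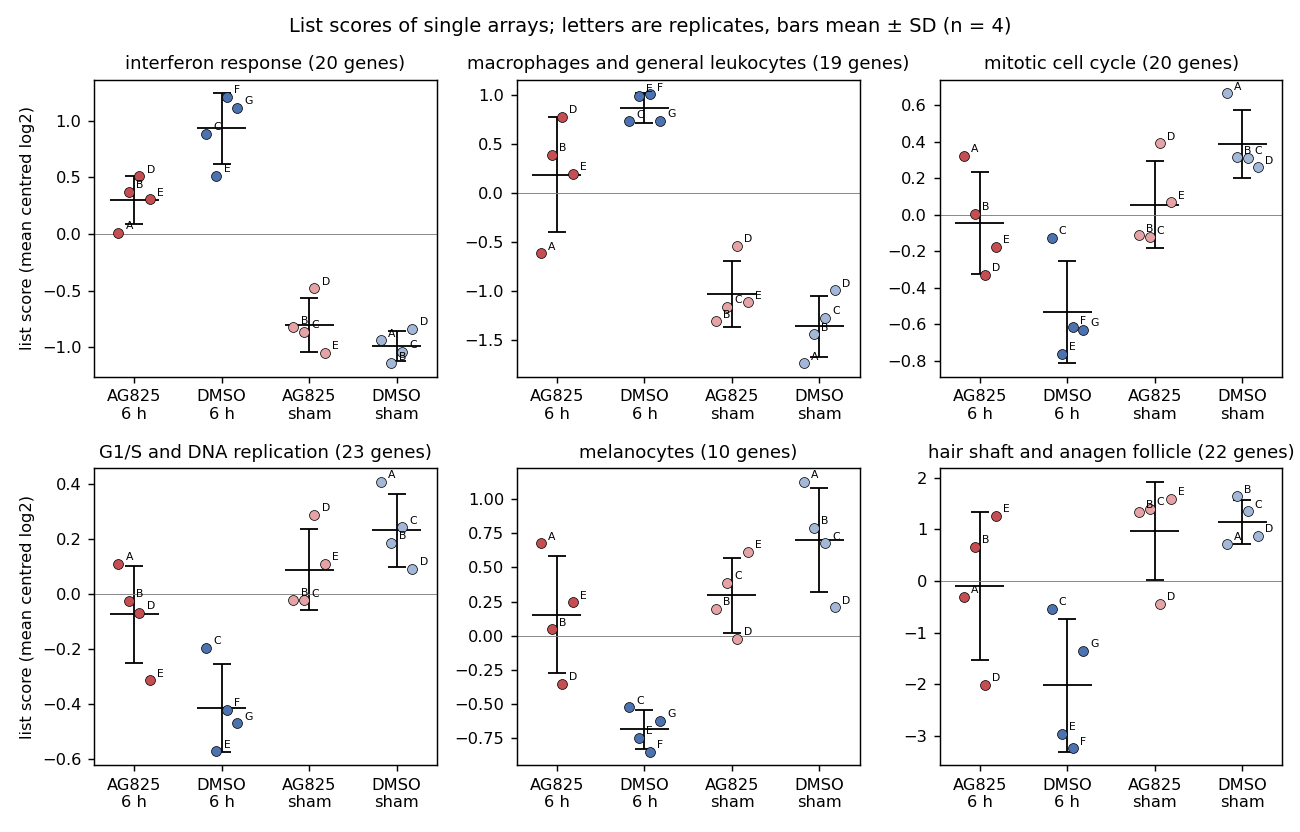
Score of 6 gene lists on each array (y axis, mean centred log2 level) in AG825 and DMSO skin 6 h after UV and in the sham groups. Points are arrays labelled by replicate, and bars show mean ± SD (n = 4). In the interferon and melanocyte panels the AG825 and DMSO arrays at 6 h do not overlap, and in the other 4 they do.

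Transcripts of cell division were also higher in AG825 skin. Of 20 mitotic genes, 19 had a positive difference, 13 reached an unadjusted p under 0.05, and the median was 0.48 log2 units. For 23 genes of G1/S and DNA replication the corresponding numbers were 22, 10 and 0.34. Mitotic scores were 0.32, 0.01, -0.33 and -0.17 in AG825 skin, against -0.13, -0.76, -0.62 and -0.63 in DMSO skin. DMSO replicate C, which also had the highest present calls of its group, scored above AG825 replicates D and E.

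Pclaf, a partner of the replication clamp PCNA, had the smallest p of all probe sets. It stood at 10.17, 9.97, 9.85 and 9.50 in AG825 skin, against 9.27, 8.53, 8.89 and 8.87 in DMSO skin. All AG825 arrays were higher, by 0.98 ± 0.18 log2 units (1.97-fold; 95% interval 0.60 to 1.36; adjusted p = 0.235), although the gene's other probe set differed by -0.02. Cdca5, the cohesion factor sororin, had 9.03, 8.23, 8.10 and 8.02 in AG825 skin, against 7.74, 7.15, 7.65 and 7.31 in DMSO skin. The difference of 0.88 ± 0.19 (adjusted p = 0.235) changed sign to -0.25 in the dChip values, so its direction is unsettled. Mki67, the proliferation antigen Ki-67, stood at 10.56, 9.55, 9.10 and 8.99 in AG825 skin, against 9.11, 7.94, 8.52 and 8.15 in DMSO skin, with 3 of the 4 DMSO arrays below all AG825 arrays (1.12 ± 0.31, adjusted p = 0.411).

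Top2a, the topoisomerase of mitosis, differed by 0.91 ± 0.27, Cdk1, the mitotic kinase, by 0.74 ± 0.21, and Cenpa, the centromeric histone, by 0.67 ± 0.19 (all with overlap). In the G1/S list, Rrm1 of ribonucleotide reductase (0.54 ± 0.15) and Ccnd2, a D-type cyclin (0.82 ± 0.24), had arrays without overlap. The helicase subunits Mcm2 (0.60 ± 0.18) and Mcm6 (0.59 ± 0.20) overlapped. Cdk4, the partner of D-type cyclins, was singled out after its values were seen: it had 9.44, 9.58, 8.90 and 9.25 in AG825 skin, against 9.07, 8.55, 8.17 and 8.53 in DMSO skin (0.71 ± 0.15, adjusted p = 0.235). It was called without DMSO replicate C (0.88, adjusted p = 0.0448) and without AG825 replicate D (0.84, adjusted p = 0.0391). Shmt1, an enzyme of one-carbon metabolism, differed by 0.56 ± 0.11 without overlap (adjusted p = 0.235), and its 2 other probe sets by 0.35 each.

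Counts of cell cycle genes also varied with the arrays fitted. Without the 3 arrays of lowest present calls, 0 mitotic genes and 1 G1/S gene reached an unadjusted p under 0.05, with medians of 0.22 and 0.21. That fit left only DMSO replicates C and G against AG825 replicates B, D and E. Over all probe sets 413 reached that p in it, against 1415 with all arrays. Once the hair score entered the fit, the counts were 9 and 9. Letters of the E2F site (TTTCCCGC, both strands) were found in 2 of 18 G1/S promoters, Mcm7 and Cdc6, and in 1.74% of array genes.

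Interferon-response genes stood lower in AG825 skin. All 20 measured members had a negative difference, 8 reached an unadjusted p under 0.05, and 3 had arrays that did not overlap, with a median of -0.67 log2 units. List scores were 0.01, 0.37, 0.51 and 0.31 in AG825 skin, against 0.89, 0.51, 1.21 and 1.12 in DMSO skin. The highest AG825 score and the lowest DMSO score, that of replicate E, nearly met. Sham skin scored -1.05 to -0.48 with AG825 and -1.14 to -0.83 with DMSO, so that both irradiated groups lay above both sham groups. Type I and II interferons act through factors that bind a site called the ISRE, and promoter stretches of 3 members that hold it are shown with the motif in capitals, 5′ to 3′ on the gene's strand (RefSeq, GRCm38.p6).
Rsad2 (chr12:26456518-26456617, minus strand): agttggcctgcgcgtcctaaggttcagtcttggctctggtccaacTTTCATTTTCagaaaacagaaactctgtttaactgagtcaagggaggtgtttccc
Ifit1 (chr19:34640740-34640839, plus strand): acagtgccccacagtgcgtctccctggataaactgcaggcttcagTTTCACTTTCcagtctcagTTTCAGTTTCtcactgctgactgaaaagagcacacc
Cxcl10 (chr5:92349040-92349139, minus strand): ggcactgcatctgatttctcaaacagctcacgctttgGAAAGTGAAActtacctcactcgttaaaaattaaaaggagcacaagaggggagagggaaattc

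Searched on both strands as GAAA, any 2 bases and GAAA, the motif was found in the 250 bases before the start of 9 of 16 interferon-response genes with a promoter in the table, and in 3.3% of array genes. Rsad2 and Ifit1 carry it on the opposite strand, Ifit1 at 2 places in the stretch shown. Again this describes letters only.

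Rsad2, an antiviral enzyme also called viperin, had 8.87, 8.94, 9.21 and 8.68 in AG825 skin, against 9.17, 8.93, 10.48 and 10.34 in DMSO skin. The groups overlapped, DMSO replicates F and G being the high arrays (-0.81 ± 0.31, adjusted p = 0.565). Ifit1, which binds foreign RNA, had 7.62, 8.52, 8.92 and 7.49 in AG825 skin, against 8.53, 7.79, 10.12 and 9.53 in DMSO skin (-0.86 ± 0.46, adjusted p = 0.742). Cxcl10, a chemokine for T cells, differed by -0.67 ± 0.40 (adjusted p = 0.778). Outside the list, Ifi47, a GTPase induced by interferon gamma, had 9.56, 10.15, 10.15 and 10.65 in AG825 skin, against 11.25, 11.02, 11.13 and 10.84 in DMSO skin. No array overlapped, which the naming rule required of this gene and of Batf2, Trim34a and Samhd1 below. The difference of Ifi47 was -0.93 ± 0.26 (1.91-fold lower, adjusted p = 0.392, limma).

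Further interferon genes showed overlap: Oasl2, an antiviral protein of the OAS family, differed by -0.95 ± 0.34, Usp18, which removes ISG15 from proteins, by -0.89 ± 0.34, and the transcription factor Irf1 by -0.43 ± 0.17. Among genes outside the list, Batf2, an interferon-inducible transcription factor, had 8.32, 8.37, 8.41 and 8.68 in AG825 skin, against 8.91, 9.20, 8.69 and 8.99 in DMSO skin, touching but not overlapping (-0.50 ± 0.13, adjusted p = 0.354). Trim34a, an interferon-inducible TRIM protein, differed by -0.83 ± 0.22 (adjusted p = 0.354), and its other probe set by -0.00081. Samhd1, which degrades deoxynucleotides and restricts viruses, differed by -0.58 ± 0.16 without overlap (adjusted p = 0.392), and its other 2 probe sets by -0.82 and -0.41.

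Cxcl11, another ligand of the T cell receptor Cxcr3, fell outside the rule for named genes because its arrays overlapped. Its levels were 6.59, 6.28, 7.0 and 6.92 in AG825 skin, against 9.46, 6.90, 8.20 and 8.37 in DMSO skin. Replicate E alone among the DMSO arrays lay within the AG825 range. The difference was -1.54 ± 0.32 (2.91-fold lower; adjusted p = 0.235), and another probe set differed by 0.08. Without DMSO replicate E the difference was -1.98 (adjusted p = 0.000802, limma). Without the 3 arrays of lowest present calls, which include that same replicate, it was -2.18 (adjusted p = 0.0022). Replicate E was the lowest DMSO array, so leaving it out enlarges the difference by construction. Over the other alternatives Cxcl11 was not called at 6 h.

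Schlafen genes, a family of interferon- and activation-induced genes of leukocytes, followed the same order. All 5 measured members were lower in AG825 skin, 3 at an unadjusted p under 0.05, with a median of -0.56. Slfn1 had 7.73, 9.06, 9.16 and 9.07 in AG825 skin, against 9.87, 9.69, 9.75 and 9.36 in DMSO skin, without overlap but with AG825 replicate A far below the others (-0.91 ± 0.28, adjusted p = 0.448). Slfn4 differed by -0.63 ± 0.30 and Slfn8 by -0.56 ± 0.20, both with overlap. The number of interferon-response genes at an unadjusted p under 0.05 was 12 without DMSO replicate E, 4 without DMSO replicate G, 4 without AG825 replicate A, 5 without DMSO replicate F, and 3 once the hair score entered the fit. Without the 3 arrays of lowest present calls it was 3. With the replicate letters added to the fit as a block, the interferon median was -0.26, against -0.67 without them.

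Macrophage and general leukocyte markers ran the same way as the interferon genes. All 19 measured members were lower in AG825 skin, 11 reached an unadjusted p under 0.05, 3 had no overlap, and the median was -0.76 log2 units. Scores were -0.62, 0.39, 0.77 and 0.19 in AG825 skin, against 0.73, 0.99, 1.00 and 0.73 in DMSO skin, so that AG825 replicate D overlapped with DMSO and replicate A stood lowest. Ptprc, the leukocyte antigen CD45, had 9.09, 9.96, 10.69 and 9.99 in AG825 skin, against 10.46, 10.82, 11.36 and 10.57 in DMSO skin (-0.87 ± 0.28, adjusted p = 0.462). Adgre1, an adhesion receptor and marker of macrophages, had 8.65, 9.24, 9.37 and 8.88 in AG825 skin, against 9.33, 9.80, 10.03 and 9.74 in DMSO skin (-0.69 ± 0.20, adjusted p = 0.411). In both, AG825 replicate D alone reached the DMSO range.

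Fcgr4, an activating receptor for IgG that was not in the list, had 7.86, 8.02, 7.86 and 8.31 in AG825 skin, against 8.67, 8.67, 8.95 and 8.79 in DMSO skin. The groups were fully separated, which the naming rule required of this gene and of Tnfrsf1b and Tmem106a below. The difference of Fcgr4 was -0.76 ± 0.20 (1.69-fold lower, adjusted p = 0.354, limma). Fcgr1, the high-affinity receptor, differed by -0.80 ± 0.25 with 1 AG825 array in the DMSO range. Outside the list too, Tnfrsf1b, a receptor for TNF that leukocytes carry, differed by -0.58 ± 0.16 without overlap (adjusted p = 0.392; its other probe set 0.07), and Tmem106a, a membrane protein of macrophages, by -0.53 ± 0.14 (adjusted p = 0.355).

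The leukocyte count was 4 without AG825 replicate A and 16 without AG825 replicate D. Over all probe sets, 957 and 2308 reached an unadjusted p under 0.05 in those fits. The leukocyte count was 0 without the 3 arrays of lowest present calls (median -0.30) and also 0 once the hair score entered the fit (median -0.25). The totals over all probe sets were then 413 and 877. Whether the lower interferon and Schlafen levels go with leukocyte content was not tested. Neutrophil markers had a median of -0.32, with 1 of 13 at an unadjusted p under 0.05, and their arrays overlapped. That count was 5 without AG825 replicate E, 3 without DMSO replicate F, 2 without DMSO replicate G, and 0 without either AG825 replicate B or DMSO replicate E. Markers of endothelium (15 genes, median -0.28) had 3 genes at that p. Their count was 5 without AG825 replicate D, 0 without AG825 replicate A, and 1 without any of AG825 replicate E, DMSO replicate C and DMSO replicate G. Those of fibroblasts and matrix (19 genes, median -0.36) had 2, with 10 without AG825 replicate D and 0 or 1 without any other single array. A negative difference was held by all 19 fibroblast, all 15 endothelial and all 11 adipocyte genes (adipocyte median -0.19). Among muscle genes 16 of 18 were negative (median -0.20). The shared direction was therefore not particular to the macrophage list. Genes at that p in the fit of all arrays included Tek, an endothelial receptor kinase (-0.56 ± 0.22), and Fn1, fibronectin (-0.64 ± 0.26).

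**Figure D3:**
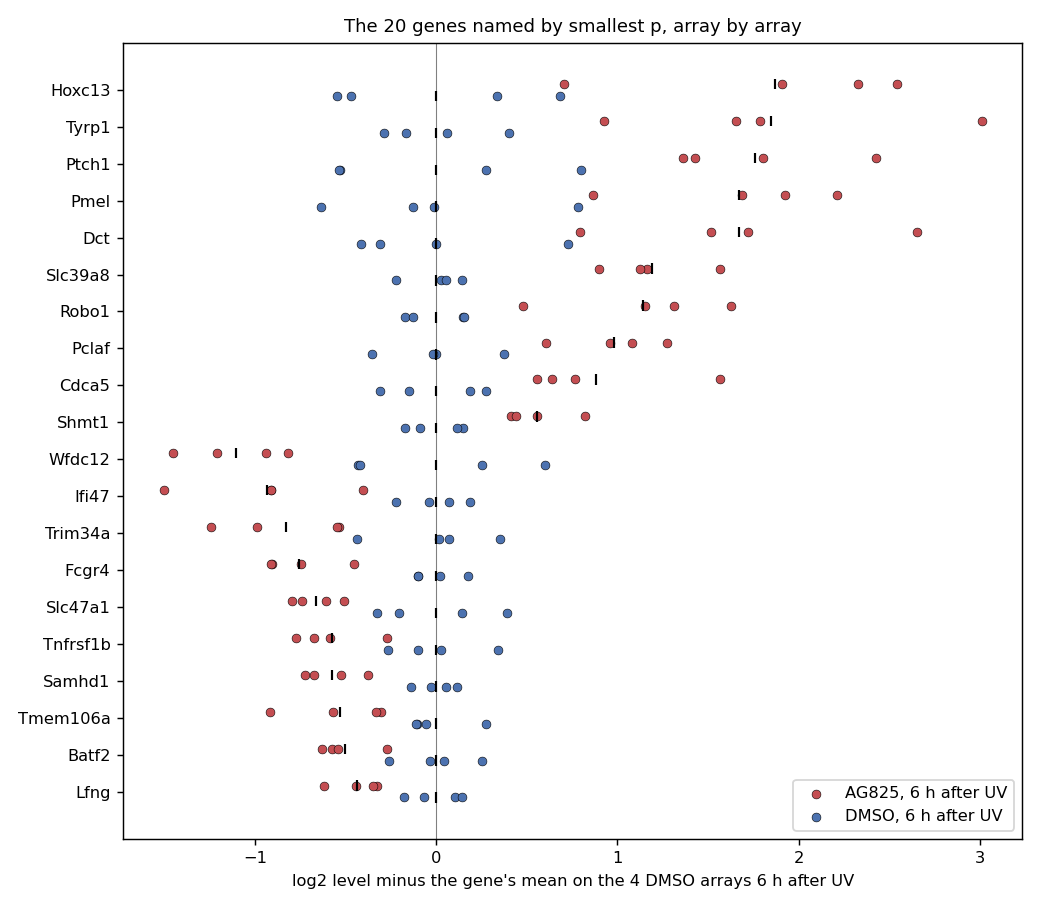
Levels of the 20 genes named by smallest p in each direction on the single arrays 6 h after UV (x axis, log2 level minus the gene's mean on the DMSO arrays). Upper rows of each pair are the 4 AG825 arrays and lower rows the 4 DMSO arrays, with a tick at each mean; the groups do not overlap for any of these genes, which the naming rule required, and 0 of them passed the adjusted test.

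Other genes among these 20 belonged to no list described here. Robo1, a receptor for Slit guidance cues, had 6.12, 5.80, 4.97 and 5.64 in AG825 skin, against 4.64, 4.31, 4.64 and 4.36 in DMSO skin (1.14 ± 0.24, adjusted p = 0.235). Slc39a8, a transporter of zinc and manganese, had 9.15, 9.11, 8.88 and 9.55 in AG825 skin, against 8.13, 7.76, 8.01 and 8.04 in DMSO skin (1.19 ± 0.26, adjusted p = 0.235; its other probe set 0.71). Wfdc12, of the WAP family of protease inhibitors, had 8.43, 8.95, 9.07 and 8.67 in AG825 skin, against 10.14, 9.45, 9.46 and 10.49 in DMSO skin (-1.11 ± 0.30, adjusted p = 0.355). All 3 separated the groups, and for Robo1 and Wfdc12 the gap between the groups was smaller than the spread within them. Lfng, a sugar transferase that modifies Notch, differed by -0.43 ± 0.12 (adjusted p = 0.355). Slc47a1, an exporter of organic cations, differed by -0.66 (1.58-fold lower, adjusted p = 0.374, limma). It was called absent on all 4 AG825 arrays, so the size of this difference is uncertain.

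Inflammatory cytokines and prostaglandin synthesis were asked about because UV induces them and ERBB signalling is known to feed into them. Of 23 measured genes, 20 had a negative difference and 3 reached an unadjusted p under 0.05, with a median of -0.14. The best known members of the response showed no resolved difference. Ptgs2 (COX-2, which makes prostaglandins) had 6.96, 7.19, 7.99 and 7.62 in AG825 skin, against 7.38, 7.71, 8.06 and 8.27 in DMSO skin. The ranges overlapped, and the 95% interval of the difference was -1.06 to 0.24. Il1b (interleukin 1 beta) had 10.83, 10.76, 11.26 and 11.18 in AG825 skin, against 11.85, 10.46, 10.57 and 10.84 in DMSO skin, with an interval of -0.56 to 0.71.

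For Il6 the arrays were 7.18, 7.95, 9.80 and 8.28 in AG825 skin, against 8.63, 8.61, 8.90 and 8.85 in DMSO skin. AG825 arrays lay on both sides of the narrow DMSO range (-1.38 to 0.50). The neutrophil chemokines Cxcl1 (interval -0.81 to 0.67) and Cxcl2 (interval -1.08 to 0.96) were as open in both directions. Intervals this wide do not show that the drug leaves these genes alone. Il1rn, the antagonist of the interleukin 1 receptor, had 8.61, 9.26, 9.12 and 9.35 in AG825 skin, against 9.79, 9.38, 9.37 and 9.59 in DMSO skin. Those arrays nearly touched but did not overlap (-0.45 ± 0.15, adjusted p = 0.493), and its other 2 probe sets differed by -0.52 and -0.31. Ccl7, a monocyte chemokine, differed by -0.77 ± 0.36 with overlap (adjusted p = 0.678). Of 13 subunits and inhibitors of NF-kB, 12 had a negative difference, of median -0.07, and 1 reached an unadjusted p under 0.05.

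ERBB receptors, ligands and feedback genes scarcely differed as a list. Of 13 measured, 6 were higher and 7 lower in AG825 skin, the median was -0.0037, and 1 reached an unadjusted p under 0.05. That gene was Erbb2, the target of the drug, with 8.75, 8.49, 8.36 and 8.91 in AG825 skin, against 8.52, 8.13, 7.98 and 8.23 in DMSO skin. The groups overlapped at DMSO replicate C, and the difference was 0.41 ± 0.15 (1.33-fold; 95% interval 0.11 to 0.72; adjusted p = 0.506). AG825 acts on the kinase, so the transcript does not check that the drug reached its target. Erbb3, a partner with little kinase activity of its own, had 9.89, 10.01, 9.80 and 10.16 in AG825 skin, against 10.01, 9.20, 9.42 and 9.68 in DMSO skin (interval -0.06 to 0.83). Egfr had an interval of -0.18 to 0.37, and Erbb4 was called absent on all 8 arrays.

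Immediate early genes and MAPK feedback genes report on the cascade below the receptors. Of 24 measured, 11 had a positive difference, the median was -0.03, and 2 reached an unadjusted p under 0.05, both of them inhibitors of the cascade. Spry1 had 9.16, 8.92, 9.11 and 9.31 in AG825 skin, against 8.81, 8.94, 8.74 and 8.77 in DMSO skin (0.31 ± 0.10, adjusted p = 0.456). Spred2 had 9.23, 8.57, 8.49 and 8.60 in AG825 skin, against 8.09, 7.84, 8.63 and 8.18 in DMSO skin (0.54 ± 0.19, adjusted p = 0.51), with another probe set at 0.04. Each overlapped at 1 DMSO array.

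**Figure D4:**
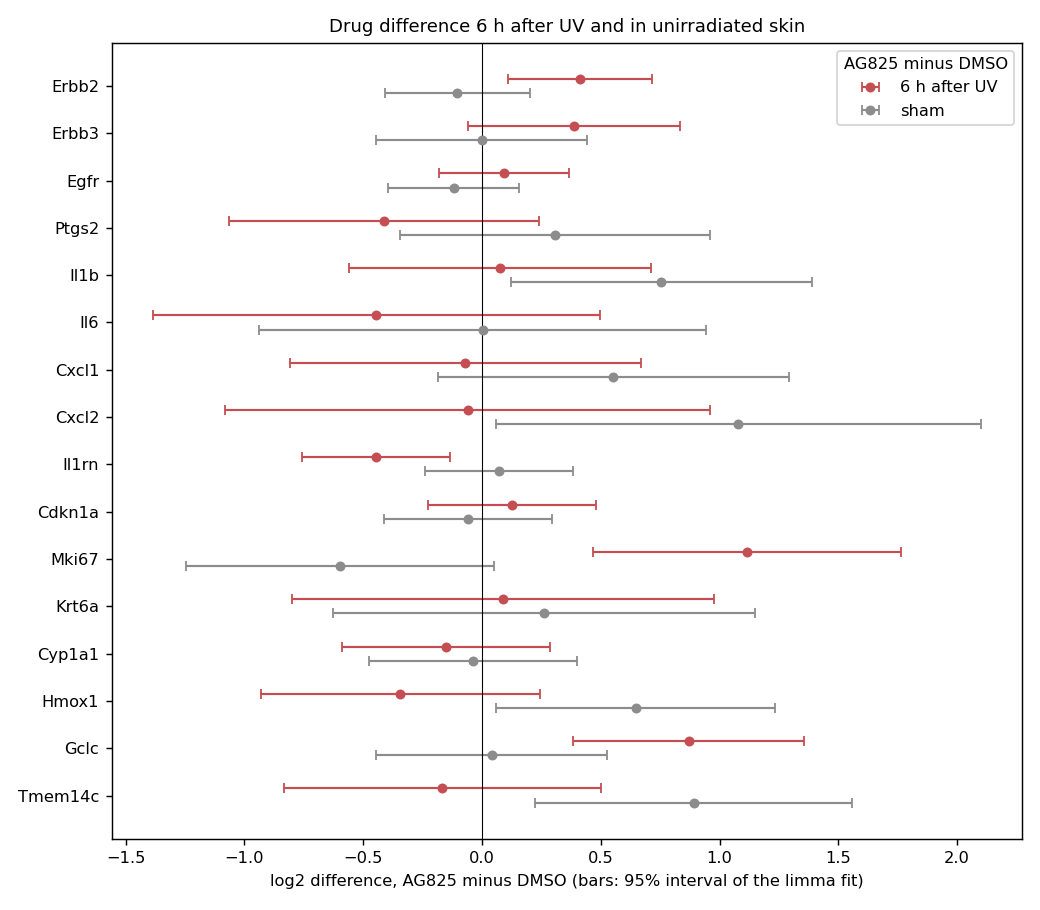
Log2 difference between AG825 and DMSO skin for 16 genes, 6 h after UV (red, upper of each pair) and after sham irradiation (grey), with 95% intervals from the limma fit. The intervals 6 h after UV reach across 0 for Egfr, Erbb3, Ptgs2, Il1b, Il6, Cxcl1 and Cxcl2 and lie above 0, before adjustment, for Erbb2, Mki67 and Gclc.

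Genes of epidermal differentiation stood lower in AG825 skin by a median of -0.56 over 19 genes, 5 of them at an unadjusted p under 0.05. AG825 replicate A carried much of this: its score was -1.61, against 0.17, -0.09 and 0.13 on the other AG825 arrays, and 0.48, -0.10, -0.21 and 0.60 on the DMSO arrays. Krt1, a keratin of the suprabasal layers, had 10.70, 13.32, 13.21 and 12.98 in AG825 skin, against 13.72, 13.25, 13.06 and 13.85 in DMSO skin (-0.92 ± 0.41, adjusted p = 0.655). Its partner Krt10 had 11.21, 13.45, 13.29 and 13.03 in AG825 skin, against 13.62, 13.31, 13.41 and 13.87 in DMSO skin (-0.81 ± 0.36). Replicate A was the outlying array for both. Of the barrier proteins, Lor (loricrin) differed by -0.66 ± 0.21 and Hrnr (hornerin) by -1.80 ± 0.62, with overlap. Without AG825 replicate A the list median was -0.21 and 1 gene reached that p. Once the hair score entered the fit it was -0.91 with 10 genes.

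Of 16 stress keratins and alarmins, 13 had a negative difference and 3 a positive one, with a median of -0.25, and 1 reached an unadjusted p under 0.05: Krt17, a keratin of wounded epidermis and of follicles, at 0.63 ± 0.29. Krt6a, the wound keratin, had 12.10, 13.73, 12.99 and 14.08 in AG825 skin, against 14.03, 12.55, 12.44 and 13.53 in DMSO skin, with arrays intermixed (interval -0.80 to 0.98). In the basal list, 9 of 13 were positive and 3 reached that p, among them Trp63, the master regulator of stratified epithelium, at 0.62 ± 0.23.

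The response to DNA damage was of interest because UV lesions halt the cell cycle. For 13 checkpoint genes the median was 0.19, with 12 positive differences and 1 at an unadjusted p under 0.05. Cdc25a, the phosphatase that checkpoint kinases mark for degradation, had 8.09, 7.61, 7.74 and 7.60 in AG825 skin, against 7.50, 7.66, 7.31 and 7.35 in DMSO skin (0.30 ± 0.12, adjusted p = 0.569). For 23 targets of p53 the median was 0.06, with 14 positive. Cdkn1a, the cell cycle inhibitor p21, had 11.52, 12.10, 11.69 and 11.98 in AG825 skin, against 11.62, 11.95, 11.20 and 12.02 in DMSO skin, intermixed (interval -0.23 to 0.48). Gadd45a, a damage-induced regulator, was the 1 target at an unadjusted p under 0.05 (0.49 ± 0.20, adjusted p = 0.611).

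Chemical stress genes were included because a topical drug can induce them. Cyp1a1, induced through the aryl hydrocarbon receptor, had 9.23, 9.18, 9.68 and 8.11 in AG825 skin, against 9.05, 9.03, 9.48 and 9.25 in DMSO skin (interval -0.59 to 0.28), and 0 of 9 receptor targets reached an unadjusted p under 0.05. Of 19 NRF2 targets, 2 did. Gclc, the catalytic subunit that limits glutathione synthesis, had 8.49, 8.05, 7.84 and 8.71 in AG825 skin, against 7.60, 7.42, 7.03 and 7.56 in DMSO skin. It did not overlap between groups (0.87 ± 0.23; 1.83-fold; adjusted p = 0.366). Txnrd1, thioredoxin reductase, differed by 0.33 ± 0.14 with overlap, while Hmox1, haem oxygenase, lay within -0.93 and 0.24. The NRF2 list as a whole had a median of -0.11. Heat shock and unfolded protein genes had a median of 0.06 over 22 genes, with Hspb8 (0.51 ± 0.19) and Hsph1 (0.38 ± 0.16), both chaperone proteins, among the 3 higher at that p, and 1 lower. Mt4, the metallothionein of stratified epithelium, differed by 1.73 ± 0.57 with overlap, beside a median of 0.08 for the 5 metallothioneins.

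The difference of 6 h skin was then set against that of unirradiated skin. The interaction of drug and UV was called for 0 of 19645 probe sets (0.0%) by limma, with 1209 at an unadjusted p under 0.05 (6.15%, of which 3.69% above 0 and 2.46% below) and a lowest adjusted p of 0.322. In sham skin itself, AG825 and DMSO differed at 0 probe sets after adjustment, with 193 at an unadjusted p under 0.05 (0.982%, of which 0.433% higher with AG825 and 0.55% lower). The interaction and the 6 h difference share the 6 h arrays, so values are given side by side. Pclaf differed by 0.98 after UV and by -0.46 after sham (interaction 1.44, adjusted p = 0.322). Tyrp1 differed by 1.85 and -0.59 (interaction 2.43, adjusted p = 0.45), Mki67 by 1.12 and -0.60 (interaction 1.72, adjusted p = 0.45), and Ifi47 by -0.93 and 0.35 (interaction -1.28, adjusted p = 0.49).

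By list, the median in sham skin was -0.42 for melanocytes, -0.34 for mitosis, 0.17 for interferon response and 0.31 for macrophages. Each was opposite in sign to the 6 h value, and an unadjusted p under 0.05 in sham skin was reached by 2, 5, 0 and 1 members. Interaction p-values under 0.05 before adjustment were held by 8 of 10 melanocyte, 17 of 20 mitotic, 9 of 20 interferon and 13 of 19 macrophage genes. The melanocyte score averaged 0.29 ± 0.27 in AG825 sham skin and 0.70 ± 0.38 in DMSO sham skin (SD, n = 4 each).

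At 24 h after UV the drug difference was set against that at 6 h in the same fit. Again 0 probe sets passed (0.0%), 1103 had an unadjusted p under 0.05 (5.61%, of which 2.62% above 0 and 2.99% below), and the lowest adjusted p was 0.601. AG825 and DMSO skin at 24 h differed at 0 probe sets after adjustment, with a lowest adjusted p of 0.0553 and 2087 at an unadjusted p under 0.05 (10.6%, of which 4.33% higher with AG825 and 6.29% lower). List medians at 6 h and 24 h were 0.92 and -0.18 for melanocytes, 1.98 and 0.17 for hair, 0.48 and 0.22 for mitosis, -0.67 and 0.72 for interferon response, and -0.76 and 0.0037 for macrophages. At 24 h an unadjusted p under 0.05 (limma, either direction) was reached by 0 of 10 melanocyte, 1 of 22 hair and 2 of 20 mitotic genes. It was reached by 10 of 20 interferon and 2 of 19 macrophage genes. The interferon scores at 24 h were 0.36, 0.12 and 1.64 in AG825 skin (replicates A, B and C). In DMSO skin they were -0.04, -0.35, 0.27 and 0.24 (replicates A, B, C and E). The groups overlapped, and AG825 replicate C stood far above the other arrays. Cxcl11 differed by -1.54 at 6 h and by 0.15 at 24 h. Tmem14c, a mitochondrial protein of haem synthesis, differed by -0.17 at 6 h (interval -0.84 to 0.50) and by -2.21 at 24 h.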

How the data were processed

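The main values are the deposited log2 table of 19645 probe sets on 23 arrays, for which the submitters' processing notes name RMA without a version. Deposited tables of dChip (23 arrays) and GCOS (22 arrays, without DMSO replicate G of 6 h) hold intensity on a linear scale with detection calls, per the file headers. They served as alternatives after log2(intensity + 16). GCOS arrays were first scaled to a common trimmed mean, with a trimmed fraction of 0.02 at each end. The submitters' settings for dChip and GCOS are not given in the sources used here. Groups follow the labels. Platform annotation named 1 gene for 17825 probe sets, several for 445 and none for 1375; only the first were named, as 12106 genes, each by its probe set of highest mean level. In limma 3.58.1 (R 4.3.3) 1 mean per group was fitted over all 23 arrays, with moderated two-sided tests and Benjamini-Hochberg adjustment over all probe sets, at 0.05. The procedure was tested on simulated data. The members and lists were chosen with earlier results of these data known. Named genes were to be the 10 largest passing changes in each direction; as none passed, they are the 10 smallest p in each direction among genes called present on at least 2 of the 8 arrays without overlap, plus up to 4 members per list by p, and a fixed set. Genes named for their promoters, Cxcl11 and Cdk4 were added after values were seen. List counts with arrays left out, or with a covariate, were also added then. The number of arrays limits the precision. Replicate letters were not used as pairs: the 6 h groups share only the letter E, and these 2 arrays deviated from their group means with a correlation of 0.093. A single pair cannot decide whether a letter marks a batch, and the labels do not say what the letters mark. All other letters differ between the 6 h groups, so those groups alone could not tell an effect of letter apart from the drug. Whether letters carry a batch was not tested.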

Additional observations from a re-analysis of the deposited data

Results flagged for a closer look

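Among 238 sets of 4 arrays examined (the genes and list scores described, in AG825 and in DMSO skin 6 h after UV), 9 held an array far from the other 3, by Dixon's ratio of that gap to the group's range at its 95% critical value. Chance marks about 1 in 20 such sets, so this number is no excess. AG825 replicate A was the array apart for Krt1 (10.70, with the other AG825 arrays at 12.98 to 13.32), for the epidermal differentiation score (-1.61, others -0.09 to 0.17), for Slfn1 (7.73, others 9.06 to 9.16) and, on the high side, for Spred2 (9.23, others 8.49 to 8.60). AG825 replicate B was apart for Mcm2 (8.45, others 8.17 to 8.21). DMSO replicate C was apart for Top2a (9.23, others 8.15 to 8.32), for Fcgr1 (9.32, others 9.56 to 9.60) and for the cholesterol synthesis score (-0.053, others -0.29 to -0.28). DMSO replicate E was apart for Tmem106a (9.69, others 9.30 to 9.36).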

How the results depend on the processing

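The 0 calls between AG825 and DMSO at 6 h became 2 with GCOS values (Tmem35a and Myb) and 1 without the 3 arrays of lowest present calls (Cxcl11), and ranged between 0 and 21 when single arrays were left out. Those were 2 without DMSO C (Krt25 and Cdk4), 1 without DMSO E (Cxcl11) and 21 without AG825 D, of which 21 were higher. Tmem35a was called present on 2 of the 8 arrays and Myb on 1. Their differences at 6 h were 0.15 and 0.38 in the main fit, against 1.57 and 1.34 with GCOS values. For the interaction the calls became 2 with GCOS values (again Tmem35a and Myb) and 1 with the replicate block (Clec7a), with 0 in every leave-one-out fit. For 24 h minus 6 h they became 1 with dChip values at a pseudocount of 16 (Tmem14c), 1 with GCOS values (Gprc5c) and 1 without the 3 arrays of lowest present calls (Cxcl11), and ranged between 0 and 1 when single arrays were left out (Cxcl11 without DMSO E, an unnamed probe set without AG825 D). Gprc5c was called present on 0 of the 8 arrays of 6 h, and its value for 24 h minus 6 h was 0.16 in the main fit, against 2.62 with GCOS values. A fit of the 8 arrays alone gives no interaction or time value. Counts at an unadjusted p under 0.05 ranged between 413 and 2308 for the 6 h difference over all alternatives. The causes were not tested.

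The log2 differences of single genes changed sign in 44 fits, for the genes named next; except for Cdca5 and Krt17 their intervals span 0. With dChip values Cdca5 was -0.25 (-0.26 at a pseudocount of 1) and Egfr -0.077 (-0.078). With GCOS values Ptgs2 was 0.011, Cxcl2 0.0074 and Tmem14c 0.088. With the hair score as a covariate Egfr was -0.063, Erbb3 -0.0025, Il6 0.10, Cdkn1a -0.031, Krt6a -0.64, Cyp1a1 0.21, Tmem14c 0.028, Id1 -0.40 and Krt17 -0.059. With the replicate block Il1b was -0.24, Cdkn1a -0.046, Id1 -0.012 and Ifit1 0.060. The block was fitted over all arrays, so effects of the letters A to E were also estimated from sham or 24 h skin. Letters F and G occurred on no array other than those of DMSO skin at 6 h, so the block absorbed both arrays. The DMSO mean at 6 h then rested on replicates C and E, corrected for letter. For the 6 h difference the block gave 0 calls. With percent present as a covariate Il1b was -0.0045 and Krt6a -0.066. Without the 3 arrays of lowest present calls Il1b was -0.28, Id1 -0.088, Cxcl1 0.17 and Krt6a -0.18.
Leaving out single arrays gave ranges that span 0 for Egfr (-0.029 to 0.22), Il1b (-0.083 to 0.38), Cxcl1 (-0.33 to 0.33), Cxcl2 (-0.45 to 0.26), Cdkn1a (-0.039 to 0.23), Krt6a (-0.20 to 0.46), Cyp1a1 (-0.36 to 0.16), Id1 (-0.073 to 0.53) and Tmem14c (-0.31 to 0.015). The medians of the melanocyte, mitotic, G1/S, interferon, Schlafen and macrophage lists kept their sign under all alternatives run. That of the hair list did so except with its own score as covariate (-0.01). For the interferon list the median was -0.26 with the replicate block, against -0.67 without it. With 4 arrays a group, differences smaller than the intervals printed could not be resolved.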
